A study of Ichthyophis bannanicus with 29 samples.

Results

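Of the 53113 assembled genes measured in *Ichthyophis bannanicus*, 62 (0.117%) were present in every solid organ and nearly absent from blood. They were chosen by level: a tissue mean of 10 TPM (transcripts per 1000000) or more in each of heart, kidney, liver, lung, ovary, skin, spleen, stomach and testis, and under 1 TPM in each of the 3 blood libraries. *Ichthyophis bannanicus* is a caecilian, a limbless burrowing amphibian, and the study compared messenger RNA of its 10 tissues with a view to ecological adaptation. Each tissue had 3 libraries except ovary with 2 (replicates 1 and 3), which gave 26 solid-organ and 3 blood libraries. No treatment, strain, age or sex is given in the sources used here beyond the gonad that was sampled. Nothing in the labels tells separate animals from repeat libraries, so p-values measure only how these samples spread, and that spread may be technical. Whether a blood library holds fewer cells of a type or less RNA per cell cannot be told apart in bulk samples.

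The genes are known by their assembly IDs. The table pairs no names with them, so no function is given for any gene, the tissue labels could not be checked against marker genes, and at most 2 IDs per direction of a comparison are printed. As background, a solid organ is built from its own working cells together with parts that organs share: connective tissue with its matrix of collagens, vessels lined by endothelium, smooth muscle, nerves, and epithelial or mesothelial surfaces on a basement membrane. Blood lacks these fixed tissues. In amphibians its cells are mostly nucleated red cells, which still hold RNA rich in haemoglobin transcripts, with white cells and thrombocytes beside them.

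4 libraries stood apart before any comparison. Kidney replicate 1 carried genes that were otherwise restricted to ovary, at a median of 42.1% of their ovary mean over 89 genes, against 0% and 0.0284% in the other kidney libraries. Testis replicate 1 carried kidney genes at a median of 7.30% of their kidney mean (141 genes), and liver replicate 2 carried spleen genes at 9% (36 genes). Spleen replicate 1 had 18410 genes at 1 TPM or more, the fewest of the 29 libraries, where the others had between 23542 and 36057. The shares and the numbers of genes led by an organ are also given without all 4. Counts of calls are given for some organs without the kidney, testis and liver libraries named here, or without spleen replicate 1 alone. No fit left out all 4. TPM sums to 1000000 in every library, and sequencing depth is unknown.

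Absence from blood was rare among genes that reach every organ. The number of genes at 10 TPM or more in all 9 organs was 3934, and 3410 of them (86.7%) also averaged 10 TPM or more in blood. A further 462 lay in between, and the 62 genes under 1 TPM in every blood library were 1.58%. Their blood values chose them and are given as a description. In blood replicate 1 the genes ranged from 0 to 0.987 TPM with a median of 0.365, in replicate 2 from 0 to 0.983 with a median of 0.186, and in replicate 3 from 0 to 0.814 with a median of 0.196. Replicate 1 was the highest of the blood libraries for 45 genes, replicate 2 for 11 and replicate 3 for 5, and 1 gene was listed at 0 in all of them. The median over the 3410 genes was likewise highest in replicate 1, at 41.9 TPM, against 34.4 and 34.9 TPM in replicates 2 and 3. A low value above 0 was the usual state, since 55 genes were above 0 in every blood library. The mean blood level was a median of 0.266% of the mean over the 9 organs, and at most 1.80%. Across the 62 genes, the Pearson r of log2(TPM + 1) was 0.605 between blood replicates 1 and 2, 0.672 between 1 and 3, and 0.835 between 2 and 3. These r share the limit of 1 TPM and are given as a description.

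**Figure D1:**
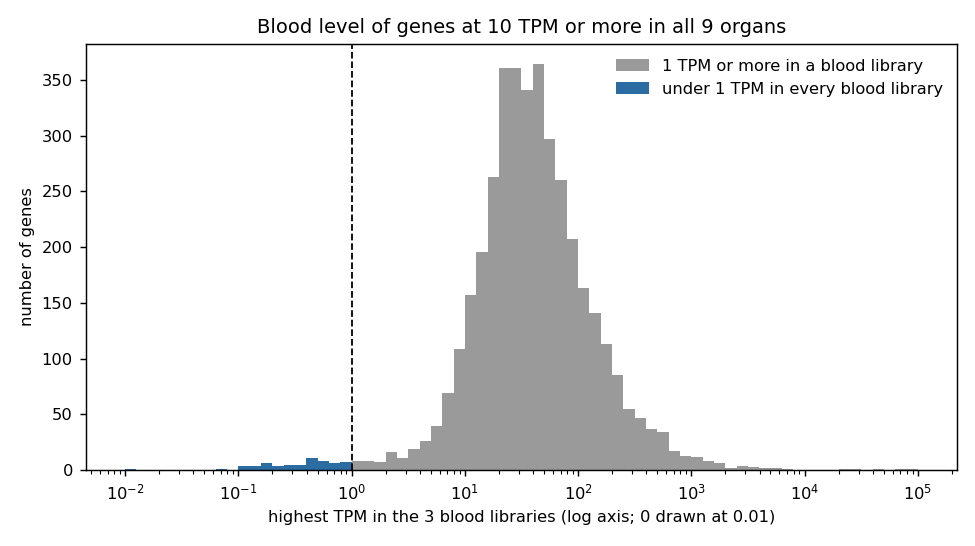
The number of genes (vertical axis) by their highest TPM in the 3 blood libraries (horizontal log axis), for the 3934 genes that average at least 10 TPM in all 9 solid organs. The 62 genes left of the dashed line at 1 TPM form the low tail of the distribution, and no gap separates them from the rest.

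The limits cut through a continuum. Just inside the blood limit, TRINITY_DN82695_c0_g1 was at 0.987, 0.488 and 0.515 TPM in the blood libraries and TRINITY_DN37045_c0_g1 at 0.587, 0.983 and 0.661. Just outside, TRINITY_DN20657_c0_g1 was at 1.09, 0.542 and 0.630 TPM and averaged 241 TPM over the organs. Between 0.8 and 1 TPM lay 7 genes inside the limit, and between 1 and 1.2 TPM lay 7 outside it. At the organ limit, TRINITY_DN2395_c0_g1 averaged 10.01 TPM in skin and TRINITY_DN265_c0_g2 10.01 TPM in heart, while TRINITY_DN2138_c2_g1 missed with 9.38 TPM in liver. The lowest organ mean was under 12 TPM for 17 of the 62 genes, and 16 genes low in blood had a lowest organ mean between 8 and 10 TPM. The limit on organs applied to means, not to libraries: 29 of the 62 genes were at 10 TPM or more in all 26 organ libraries. Of the 1612 single organ values, 71 were under 10 TPM and 2 were under 1 TPM. The number of genes was 76 without blood replicate 1 and 55 without ovary replicate 1.

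**Figure D2:**
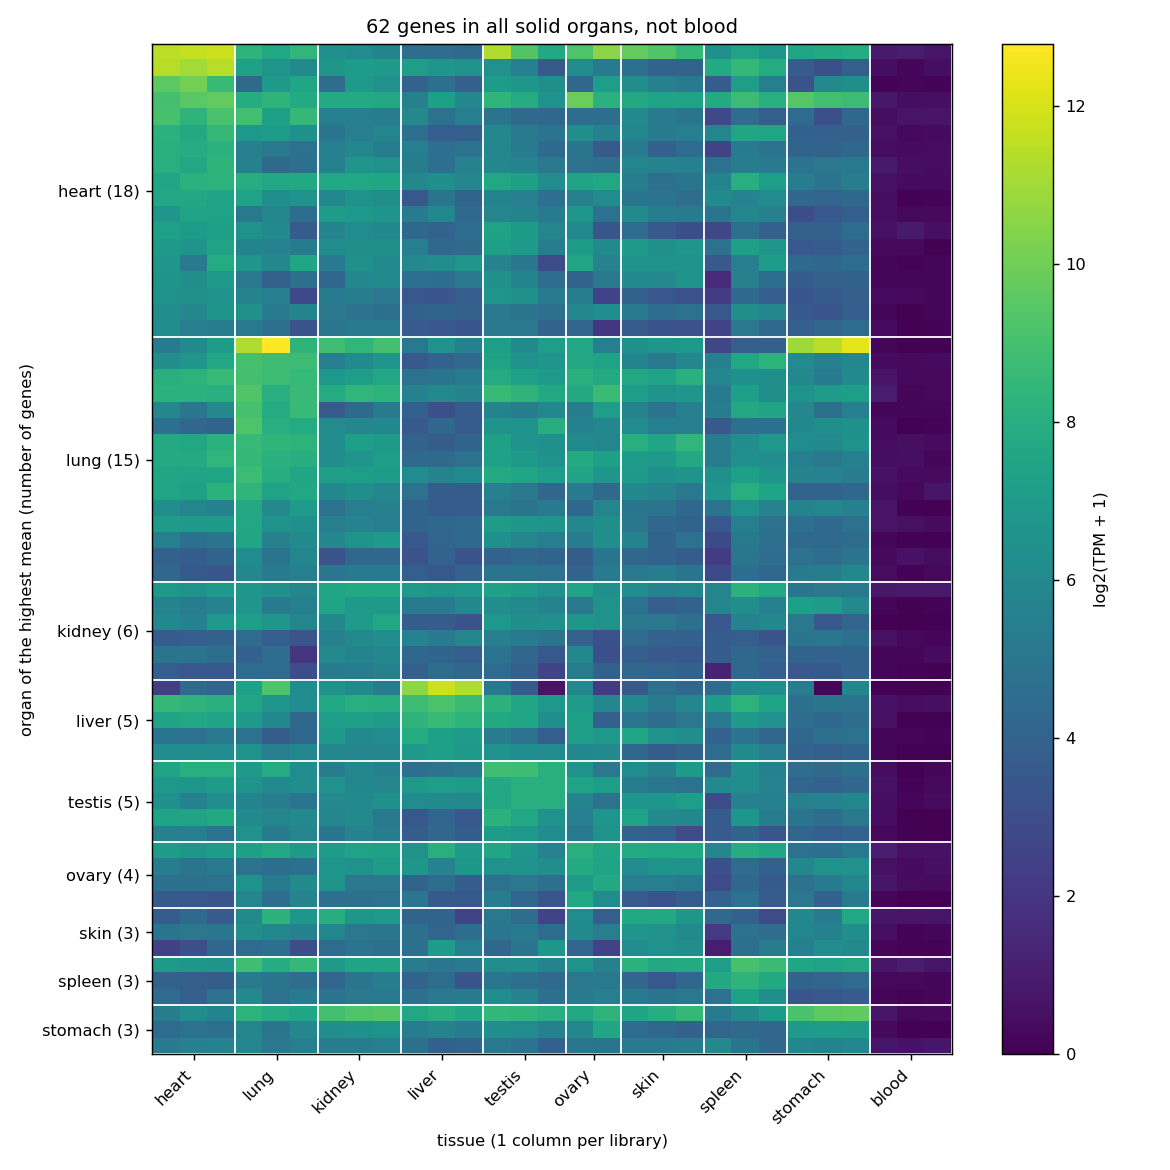
Level of the 62 genes (rows, log2 of TPM + 1 as colour) in the 29 libraries (columns), with rows grouped by the organ of the highest mean and ordered by that mean within a group. All 3 blood columns are dark, and the brightest blocks lie where the 18 heart rows and 15 lung rows meet their own organ.

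The 62 genes took the largest share of RNA in heart and lung. In the heart libraries the 62 genes together took 1.34%, 1.31% and 1.52% of all TPM, and in the lung libraries 1.28%, 1.45% and 0.733%. The heart mean was 1.39% ± 0.113 and the lung mean 1.15% ± 0.374 (SD, n = 3 each). The other organs lay lower: stomach at 0.697% ± 0.187, ovary at 0.683% ± 0.0326 (n = 2), testis at 0.680% ± 0.255, kidney at 0.612% ± 0.0417, liver at 0.596% ± 0.132, skin at 0.478% ± 0.0612 and spleen at 0.464% ± 0.204 (SD, n = 3 unless given). From stomach to liver, and between skin and spleen, neighbouring organs differed by less than the SD of at least one of them, and the ranges of their libraries overlapped. All 3 heart libraries lay above every library outside heart and lung, the highest of which was testis replicate 1 at 0.956%. In blood the same genes took 0.00243%, 0.00153% and 0.00152%. Without the 4 libraries that stood apart, spleen was at 0.572% ± 0.114, testis at 0.542% ± 0.129, liver at 0.523% ± 0.0515 and kidney at 0.635% ± 0.0138 (SD, n = 2 each), so skin and not spleen had the lowest mean. After each library was divided by its median-of-ratios factor, lung stood at 1.21% ± 0.283 and heart at 1.14% ± 0.0888, so their order turned, within the spread of the lung libraries. On that scale stomach was at 0.940% ± 0.147, liver at 0.709% ± 0.227 and spleen at 0.616% ± 0.0504, and testis went from 0.680% to 0.420% ± 0.131 and became the lowest organ (SD, n = 3 each).

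Part of this order rests on 2 abundant genes, which made up 21.0% of the genes' summed organ means. Without them heart was at 1.06% ± 0.0863 and lung at 0.797% ± 0.177, while stomach became the lowest organ at 0.352% ± 0.0277 (SD, n = 3 each). Liver then followed lung at 0.588% ± 0.129 (SD, n = 3). Much of that liver share came from TRINITY_DN4385_c1_g1, which was not among the 2 and averaged 2547 ± 1050 TPM in liver (SD, n = 3). The share without that gene was not computed. A level for the typical gene gives another order below heart and lung. The median over the 62 genes was 94.4 ± 19.5 TPM in heart, 75.9 ± 21.1 in lung, 66.3 ± 18.4 in testis, 65.9 ± 3.90 in kidney, 43.8 ± 20.8 in spleen, 43.4 ± 10.4 in skin, 28.9 ± 4.96 in stomach and 24.9 ± 0.611 in liver (SD, n = 3 each). In ovary it was 60.3 ± 2.98 TPM (SD, n = 2). After rescaling the median was 80.3 ± 14.9 in lung and 77.0 ± 11.5 in heart, and liver was lowest at 29.2 ± 3.15 (SD, n = 3 each). As deposited, liver and stomach libraries, at 24.2 to 34.3 TPM, lay below those of all other organs except spleen replicate 1 at 21.7 TPM.

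**Figure D3:**
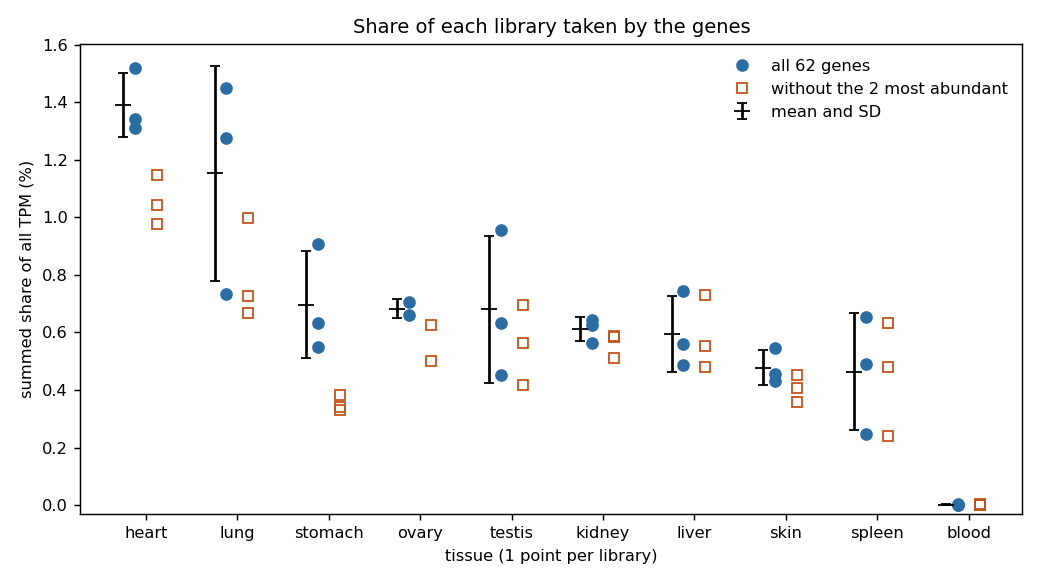
Summed share of all TPM (vertical axis, percent) taken by the 62 genes in each library (filled circles, with the mean and SD of the tissue beside them) and without the 2 most abundant genes (open squares), by tissue. By mean, heart and lung stand highest in both, the stomach mean drops from 0.697% to 0.352%, and blood lies near 0. Single lung libraries do not all stand apart. Lung replicate 3 at 0.733% lies below single libraries of testis, stomach and liver. Without the 2 genes, liver replicate 2 at 0.732% lies above lung replicates 2 and 3.

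By tissue mean, 18 genes were highest in heart and 15 in lung. Kidney was highest for 6, liver and testis for 5 each, ovary for 4, and skin, spleen and stomach for 3 each. The lowest organ was liver for 21 genes and stomach for 18, spleen for 9, heart and skin for 6 each, and lung and ovary for 1 each. Kidney and testis were the lowest organ for none of the 62. Among the 3410 genes at 10 TPM or more in all 10 tissues the order was another one: testis was highest for 29%, ovary for 24.6%, heart for 12.3% and lung for 5.98%, and stomach was lowest for 28.7%, spleen for 22.6% and liver for 14.1%. These shares were set side by side and their difference was not tested. Without the 4 libraries that stood apart, heart was highest for 18 genes and lung for 14, and liver was lowest for 22, stomach for 18, skin for 8 and spleen for 3. With rescaling, 16 genes were highest in lung and 15 in heart, and liver was lowest for 17, stomach for 13 and testis for 11.

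The leading organ was often close to the second one, but not for every gene. The highest organ mean was a median of 1.40 times the second highest, it was under 1.5 times for 34 genes, and it was 2 times or more for 16. This ratio is not given for other genes, so whether it is particular to this set was not tested. For the 15 lung-led genes, heart was the second organ in 6 and liver the lowest in 12. The 18 heart-led genes averaged between 53.7 and 3276 TPM in heart with a median of 223, and stomach was the lowest organ for 9 of them. The 5 liver-led genes averaged between 127 and 2547 TPM in liver, and stomach was the lowest organ for 3 of them. Kidney-led genes averaged between 42.0 and 202 TPM in kidney with a median of 96.2, and were at most 1.71 times the second organ. This was not particular to kidney. Skin-led genes had a median of 84.7 TPM in skin, and the ratio was at most 1.37 for skin-led and 1.30 for stomach-led genes.

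Presence in all organs did not mean an even level. The highest organ mean was between 3.08 and 293 times the lowest one, with a median of 10.04 times, whereas the median was 3.57 times for the 3410 genes in all 10 tissues. The SD of the 9 organ means on the log2(TPM + 1) scale had a median of 1.13 for the 62 genes and 0.59 for those 3410. The tau index over the 9 organs, which is 0 for an even gene and 1 for a gene of a single organ, had a median of 0.249 against 0.160. These medians were not tested against each other.

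The most abundant gene, TRINITY_DN13488_c0_g1, was a gene of lung and stomach. It was at 2455, 7052 and 313 TPM in the lung libraries and at 1915, 2803 and 5003 TPM in the stomach libraries. Kidney followed at 459, 337 and 522 TPM, the lung and kidney ranges overlapping through lung replicate 3. The other organs averaged between 11.2 TPM in spleen and 119 TPM in ovary, and in blood this gene was under 1 TPM. The second, TRINITY_DN1813_c1_g1, was a heart gene at 2947, 3287 and 3594 TPM. Testis held 2451, 625 and 208 TPM of it and ovary 607 and 1534 TPM, so the gonads varied more between their libraries than heart did. Liver was lowest at 23.3, 22.5 and 20.5 TPM, below every library of the other organs.

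The steadiest gene was TRINITY_DN20054_c0_g1, with an SD of 0.48 over the 9 organ means on the log2(TPM + 1) scale. Its means ran from 18.8 ± 5.77 TPM in liver to 57.9 ± 4.66 TPM in stomach (SD, n = 3 each), and spleen, skin, kidney, lung and heart averaged between 37.6 and 44.7 TPM. TRINITY_DN6684_c1_g1, the next, averaged 42.0 ± 5.30 TPM in kidney and 11.2 ± 9.10 TPM in spleen (SD, n = 3 each). Spleen replicate 1 held 1.31 TPM of it, against 19.2 and 13.0 TPM in the other spleen libraries.

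Differences among the organs were then tested, which the choice of genes had used only through the minimum of 10 TPM. That minimum limits how far a gene can lie below the others in any organ. In limma's moderated F test over the 9 organ means on log2(TPM + 1), 60 of the 62 genes differed among organs at a Benjamini-Hochberg adjusted p under 0.05. The share was 68.7% of all 49821 genes tested and 73.5% of the 3410 genes in all 10 tissues. The exceptions were TRINITY_DN6684_c1_g1 (adjusted p = 0.076) and TRINITY_DN4165_c0_g1 (adjusted p = 0.054), the latter singled out after its values were seen. After rescaling by median-of-ratios factors all 62 were called, against 65.8% of all genes tested and 71.8% of the genes in all 10 tissues. As deposited, with liver replicate 2 and the first replicates of kidney and testis left out, 58 were called.

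Each organ was next set against the unweighted mean of the other 8, and a gene was called where the adjusted p was under 0.05 and the log2 difference at least 1 in size. The 9 contrasts share their libraries, so their counts are not independent of each other. The log2(TPM + 1) scale of these differences makes changes of low genes look smaller. At least 1 contrast called 57 of the genes higher and at least 1 called 54 lower, against 62.9% and 30.9% of all genes tested and 45.9% and 41% of the genes in all 10 tissues. In no contrast was 1 of the 62 genes called, against 31.5% of all genes tested. TPM is a share of the library, and the rescaling by median-of-ratios factors moves whole organs. Over the 3410 genes in all 10 tissues, the median log2 difference of an organ ran from -0.45 in spleen to 0.54 in testis as deposited and from -0.25 in ovary to 0.16 in spleen after rescaling. Counts of calls per organ are therefore given on both scales. Counts over all contrasts, counts of genes whose libraries do not overlap, and counts of calls with libraries left out are on the deposited scale. With libraries left out, calls were counted for the 62 genes only, the F test included. Whether all genes shifted in the same way in those fits was not tested.

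**Figure D4:**
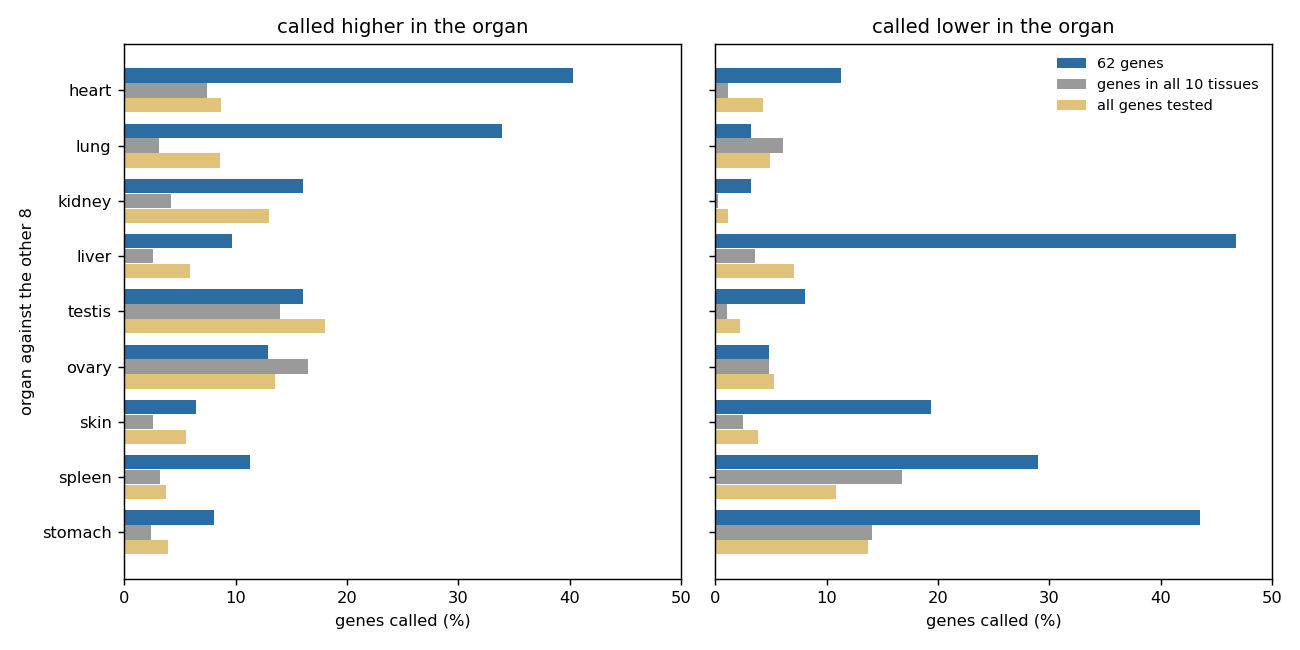
Percent of genes called higher (left) or lower (right) in each organ against the mean of the other 8, for the 62 genes, the 3410 genes at 10 TPM or more in all 10 tissues and all 49821 genes tested. The 62 genes reach 40.3% higher in heart and 33.9% in lung, and 46.8% lower in liver and 43.5% in stomach.

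Heart had the most genes called higher as deposited, and lung after rescaling. In heart 25 of the 62 genes (40.3%) were higher, where 8.73% of all genes tested and 7.45% of the genes in all 10 tissues were, and 7 (11.3%) were lower against 4.26% of all genes tested. After rescaling 24 were higher and 12 lower, against 7.2% and 5.23% of all genes tested on that scale. On the deposited scale, leaving out any one heart library left 4 lower. Without heart replicate 1, 21 were higher in heart and 22 in lung, and without heart replicate 3 the counts were 20 and 21. The median log2 difference of the 62 genes was 0.64 as deposited and 0.38 rescaled, with 0.25 and 0.00 for the genes in all 10 tissues. The 3 heart libraries lay above all 23 others for 8 genes, as they did for 2.88% of all genes tested, and below them for 0, against 0.231%. Largest among these was TRINITY_DN15391_c0_g2, at 2736, 2087 and 2733 TPM in heart. The other organ libraries held between 7.64 and 364 TPM of it with a median of 86.1, and the nearest was spleen replicate 2. Its log2 difference was 5.39 ± 0.37 (SE), and limma gave an adjusted p of 5.77e-10.

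Lung had 21 genes (33.9%) higher and 2 (3.23%) lower, against 8.57% and 4.94% of all genes tested. For lung the direction of the 62 genes and of the genes in all 10 tissues parted, with median log2 differences of 0.37 and -0.23 as deposited and 0.54 and -0.07 rescaled. After rescaling 27 were higher and 2 lower, against 10.4% and 4.08% of all genes tested. The deposited count depended on lung replicate 1, and without it 13 were higher and 4 lower on that scale. The lung libraries lay above all others for 2 genes, as for 0.735% of all genes tested, and below all others for 0, against 0.112%. The larger difference was that of TRINITY_DN5953_c0_g2, at 530, 235 and 407 TPM in lung and at most 210 TPM elsewhere, in spleen replicate 2. Its log2 difference was 3.13 ± 0.43 (SE), with a limma adjusted p of 5.44e-05.

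Liver and stomach had the most genes called lower. Of the 62 genes 29 (46.8%) were lower and 6 (9.68%) higher, against 7.10% and 5.87% of all genes tested. After rescaling 21 were lower and 7 higher, against 5.09% and 7.91% of all genes tested. As deposited, 19 were lower without liver replicate 3. Without the 3 libraries that carried genes of another organ 22 were lower and 6 higher. The order of liver and stomach turned in both cases with libraries left out, with 25 and 24 genes lower in stomach. It turned also without liver replicate 1 (24 in liver and 25 in stomach) or liver replicate 2 (22 and 26). After rescaling it held, with 17 genes lower in stomach. The median log2 difference in liver was -0.95 as deposited and -0.66 rescaled, beside -0.21 and 0.09 for the genes in all 10 tissues. Liver libraries lay below all others for 7 genes, against 0.725% of all genes tested, and above all others for 4, against 2.01%. The lowest was the abundant heart gene TRINITY_DN1813_c1_g1, described above, whose nearest other library was kidney replicate 3 at 54.0 TPM. In liver its log2 difference was -4.10 ± 0.43 (SE), and limma gave an adjusted p of 4.07e-07.

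The liver gene TRINITY_DN4385_c1_g1 was at 1542, 3637 and 2462 TPM in liver. Its libraries lay far apart in other organs: the stomach libraries held 40.2, 0.180 and 54.9 TPM, the testis libraries 34.7, 11.1 and 0.609 TPM, and the ovary libraries 58.5 and 3.37 TPM. Lung replicate 2 held 623 TPM against 156 and 73.2 TPM in the other lung libraries. The values in stomach replicate 2 and testis replicate 3 were the only organ values of the set under 1 TPM. The log2 difference in liver was 6.47 ± 0.96 (SE), with a limma adjusted p of 4.78e-05.

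Stomach had 27 genes (43.5%) lower and 5 (8.06%) higher, against 13.7% and 3.91% of all genes tested. Rescaling changed this split to 17 lower and 13 higher, against 8.05% and 6.69% of all genes tested, and the median log2 difference from -0.98 to -0.44, while that of the genes in all 10 tissues went from -0.45 to 0.10. Calls of the genes in all 10 tissues went from 14.1% lower and 2.43% higher to 3.02% and 8.24%. For the 62 genes on the deposited scale, higher ones numbered 3 without stomach replicate 1, stomach replicate 2 or testis replicate 3. Stomach libraries lay below all others for 8 genes, against 1.78% of all genes tested, and above all others for 0, against 1.19%. TRINITY_DN6242_c0_g1 had the largest such difference. It was at 25.01, 29.5 and 28.7 TPM in stomach and between 35.3 and 565 TPM elsewhere, with a log2 difference of -2.56 ± 0.30 (SE), and limma gave an adjusted p of 2.76e-06.

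In spleen the direction depended on the scale and on replicate 1. As deposited, 18 genes (29%) were lower and 7 (11.3%) higher, against 10.8% and 3.79% of all genes tested. After rescaling 7 were lower and 10 higher, against 5.65% and 6.73% of all genes tested. The larger side turned likewise for the genes in all 10 tissues, from 16.8% lower and 3.23% higher to 4.6% and 12.7%. For the 62 genes, the deposited counts without spleen replicate 1 were 10 and 10. Without spleen replicate 3, 4 were higher. A gene that did not depend on either was TRINITY_DN5635_c0_g1, at 212, 317 and 218 TPM in spleen and between 8.91 and 40.4 TPM in all other organ libraries. Against the other organs it stood at 3.48 ± 0.25 (SE, log2), with a limma adjusted p of 4.57e-09, or 4.11 after rescaling. It was the 1 gene whose spleen libraries lay above all others, against 0.686% of all genes tested. In the other direction, the spleen libraries lay below all others for 2 genes, against 0.588%. The larger difference was that of the lung and stomach gene TRINITY_DN13488_c0_g1, at 5.57, 13.4 and 14.6 TPM in spleen and at least 34.8 TPM elsewhere. In spleen its log2 difference was -4.35 ± 0.59 (SE), and limma gave an adjusted p of 3.45e-05.

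Skin had 12 genes (19.4%) lower and 4 (6.45%) higher, against 3.85% and 5.54% of all genes tested, and 12 lower and 8 higher after rescaling, against 3.31% and 6.42%. The higher count as deposited was 1 without skin replicate 1 and 2 without skin replicate 2. TRINITY_DN76175_c0_g1 was the 1 gene below all other organ libraries in skin, against 0.227% of all genes tested, and 0 were above, against 2.22%. It was at 26.6, 13.6 and 16.0 TPM in skin and between 35.2 and 174 TPM elsewhere, a log2 difference of -1.81 ± 0.31 (SE), with a limma adjusted p of 0.000281.

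Kidney, ovary and testis had shares of higher genes near those of all genes tested. Beside the genes in all 10 tissues kidney differed: of those, 4.16% were higher in kidney, 16.5% in ovary and 14% in testis. In kidney 10 genes (16.1%) were higher against 13% of all genes tested, and 2 (3.23%) were lower against 1.1%. Rescaling left 4 higher and 3 lower, against 9.42% and 2% of all genes tested. As deposited, 6 were higher without kidney replicate 2 or 3, and 1 was lower without kidney replicate 1 or 2. Without the 3 carrying libraries 8 were higher and 1 lower. None of the 62 genes had kidney libraries wholly above or below the other organs, although 5.88% of all genes tested had them above and 0.00201% below.

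In ovary 8 genes (12.9%) were higher and 3 (4.84%) lower, against 13.5% and 5.29% of all genes tested. The larger side turned with rescaling, to 5 higher and 11 lower, against 11.3% and 9.02% of all genes tested. It turned likewise for the genes in all 10 tissues, from 16.5% higher and 4.87% lower to 9.97% and 15.1%. Of the 62 genes, lower ones as deposited numbered 0 without ovary replicate 3, 5 without ovary replicate 1 or lung replicate 2, and 7 without spleen replicate 1. Ovary libraries lay above all others for 3 genes, against 5.63% of all genes tested, and below all others for 0, against 0.383%. TRINITY_DN265_c0_g2 was at 200.4 and 74.3 TPM in ovary and between 8.27 and 57.6 TPM elsewhere, with a log2 difference of 2.63 ± 0.46 (SE), and limma gave an adjusted p of 0.000224.

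In testis 10 genes (16.1%) were higher and 5 (8.06%) lower, against 18% and 2.23% of all genes tested. After rescaling 6 were higher and 16 lower, against 8.77% and 4.8% of all genes tested, so the larger side turned. It turned likewise for the genes in all 10 tissues, from 14% higher and 1.03% lower to 2.43% and 6.83%. For the 62 genes on the deposited scale it turned also without testis replicate 1, which carried kidney genes, with 6 higher and 8 lower. Without the 3 carrying libraries it turned too, with 6 and 7. Lower genes numbered 2 without testis replicate 2, 0 without testis replicate 3, 3 without skin replicate 1 and 8 without ovary replicate 3. The testis libraries lay above all others for 3 genes, against 5.71% of all genes tested, and below all others for 0, against 0.0221%. TRINITY_DN6557_c0_g1 was at 460, 450 and 278 TPM in testis and between 20.3 and 263 TPM elsewhere, where heart replicate 3 was nearest. Its log2 difference was 2.67 ± 0.35 (SE), with a limma adjusted p of 7.38e-06.

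The 62 genes did not vary as a single block. Over the 26 organ libraries the Pearson r of log2(TPM + 1) between 2 genes had a median of 0.226 over 1891 pairs, and the middle 90% of pairs ran from -0.367 to 0.712. For the 3410 genes in all 10 tissues the median was 0.235 and the same range -0.340 to 0.717. Points of these r share libraries and the unknown depth, and genes are not independent replicates, so they are a description. After rescaling the medians were 0.110 and 0.0361. The first principal component held 31.8% of the variance of the 62 genes, and 29.5% for the genes in all 10 tissues. On the component of the 62 genes the 3 heart libraries had loadings of 0.31 to 0.37 and the lung libraries 0.12 to 0.23. Opposite lay the liver at -0.29 to -0.27 and the stomach at -0.25 to -0.21. Of the libraries that stood apart, spleen replicate 1 lay among the stomach libraries at -0.225, away from spleen replicates 2 and 3 at 0.0993 and 0.00171. Testis replicate 1 lay at 0.185, within the lung range. No component is given without these libraries or after rescaling. Of the 62 genes, 53 lay on the side of heart, and no such count is given for other genes. Their second component, with 19.3% beside 18.3% for the genes in all 10 tissues, set the stomach libraries (0.26 to 0.34) against the liver libraries (-0.35 to -0.32).

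**Figure D5:**
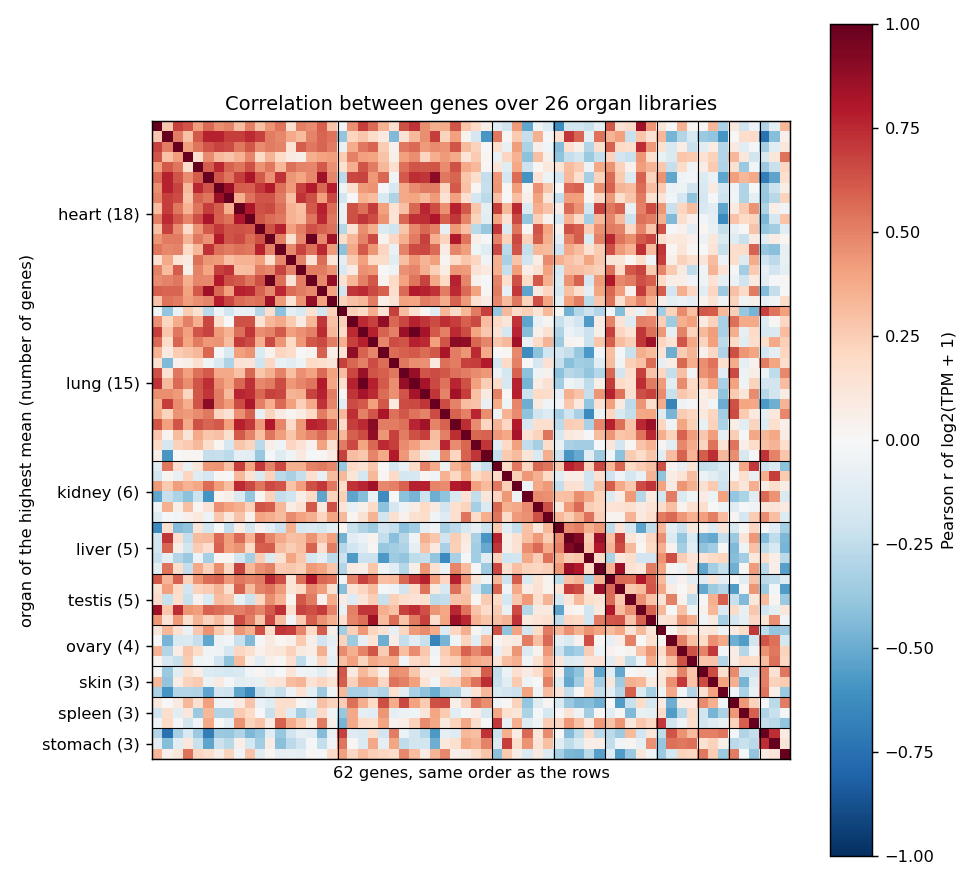
Pearson r of log2(TPM + 1) between each pair of the 62 genes over the 26 organ libraries (colour), with rows and columns grouped by the organ of the highest mean. The heart and lung blocks are mostly red, with median r of 0.526 and 0.587, and pairs of a liver-led and a lung-led gene lean blue, with a median of -0.204.

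Genes led by the same organ correlated among themselves in most organs, which grouping genes by their highest level in part sets. The median r was 0.526 among the heart-led genes (153 pairs) and 0.587 among the lung-led genes (105 pairs). Among testis-led genes it was 0.563 (10 pairs), and 0.402 to 0.455 among those led by skin, kidney, spleen or liver. Ovary-led and stomach-led genes had lower medians, at 0.242 and 0.131. Between heart-led and lung-led genes the median r was 0.369, and between heart-led and testis-led genes 0.419. It was -0.204 between liver-led and lung-led genes and 0.217 between heart-led and liver-led genes. Across the 62 genes, heart and stomach levels were almost unrelated, with an r of 0.0465 between their log2 means, and for spleen and stomach it was 0.0741. Ovary and testis were most alike, at 0.642. For the genes in all 10 tissues the same r were 0.777, 0.776 and 0.738. These r run across genes and depend on how widely the genes differ in level. The mean over the organs ran from 18.8 to 826 TPM for the 62 genes and from 12.4 to 58310 TPM for the genes in all 10 tissues. The r of both sets are therefore not like for like.

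Tight links were few. An r of 0.8 or more joined 29 pairs (1.53%, against 1.75% of pairs of the genes in all 10 tissues), and chains of such pairs linked 28 genes into 6 groups and left 34 unlinked. Such pairs were 0.899% against 0.612% after rescaling and 1.64% against 1.37% without spleen replicate 1, so the order of both sets turned in each case. The limit of 0.8 was set after values had been seen. The largest group had 12 genes. Their median levels were 136 TPM in heart, 113 TPM in lung and 111 TPM in testis, and 16.9 TPM in liver and 22.2 TPM in stomach. Gene by gene, lung was the highest organ for 7 of the 12 and heart for 3, and liver was the lowest for 8. As the median log2 deviation from each gene's own mean over the organs, lung was at 1.23 and heart at 1.15. A group of 5 genes had a median of 214 TPM in heart, 141 TPM in spleen and 114 TPM in lung, against 17.1 TPM in stomach and 16.9 TPM in liver. By the median log2 deviation lung, at 0.947, lay above spleen, at 0.508. In a group of 4 genes the liver stood at the other end, with medians of 237 TPM in liver, 178 TPM in testis and 149 TPM in heart, and stomach was the lowest organ for all 4 at 14.9 to 27.7 TPM. The 3 genes of another group were led by lung, with a median of 390 TPM there and 13.7 TPM in liver. The 2 other groups were pairs. Of the 29 links, 26 were at 0.8 or more without spleen replicate 1 and 16 after rescaling, where the lowest was 0.655.

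The closest pair was TRINITY_DN2226_c0_g2 and TRINITY_DN41701_c0_g1, with an r of 0.990 over the 26 libraries and 0.988 after rescaling. The former was at 223, 220 and 346 TPM in heart and at 369, 279 and 246 TPM in lung, and the latter at 255, 302 and 405 TPM in heart and at 525, 438 and 377 TPM in lung. Both were lowest in liver, at 19.4 to 26.8 TPM and 26.5 to 37.4 TPM. The ratio of the latter to the former was between 1.00 and 1.59 in every organ library, with a median of 1.39. They belong to different assembly components, and whether they are parts of 1 transcript was not tested. The most opposed pair was the heart gene TRINITY_DN15391_c0_g2 and TRINITY_DN25_c0_g4, with an r of -0.743. The latter averaged 708 ± 133 TPM in stomach and 586 ± 87.5 TPM in kidney but 55.7 ± 15.7 TPM in heart (SD, n = 3 each).

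Within an organ, most pairs of genes deviated in the same direction from library to library. When each library was taken as its deviation from the organ mean, the median r between 2 of the 62 genes was 0.392 and 87.4% of pairs were above 0, against 0.272 and 72.5% for the genes in all 10 tissues. Rescaling brought the medians to 0.174 and 0.0271. Spleen replicate 1 was low for the set, with 5 of 62 genes above the spleen mean and a median deviation of -0.97 (log2), and spleen replicate 2 was high, with 59 genes above it. The genes in all 10 tissues deviated likewise, by -0.66 and 0.57, and after rescaling the 62 genes deviated by -0.10 and -0.02 and the genes in all 10 tissues by 0.21 and -0.12. Testis replicate 1 had 56 genes above the testis mean and replicate 3 had 7, with median deviations of 0.38 and -0.45 as deposited and 0.31 and -0.20 after rescaling. The genes in all 10 tissues deviated there by 0.09 and -0.25 as deposited and by 0.02 and -0.01 after rescaling. Lung replicate 1 had 55 genes above the lung mean, with a median deviation of 0.47 as deposited and 0.29 rescaled, beside 0.20 and 0.02. The order of testis replicates and the high lung replicate 1 thus held on both scales, while spleen replicate 1 lay nearer to 0 after rescaling but below the genes in all 10 tissues. Without spleen replicate 1 the median r of deviations was 0.328, or 0.190 after rescaling.

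The assembly IDs, which the choice of genes did not use, place each of the 62 genes in a component of its own. Within those components, 20 of the 62 genes (32.3%) had another assembled gene beside them, as did 21.7% of the genes in all 10 tissues and 23.3% of the whole table. Such a neighbour can be a copy, an allele or a fragment, and reads can be split between near-identical copies, so the level of these 20 genes is uncertain. The 20 genes had 30 neighbours in all. In blood, 15 neighbours were under 1 TPM in every library, as the genes themselves were, while 14 averaged 1 TPM or more and 7 averaged 10 TPM or more. The neighbour of TRINITY_DN5953_c0_g2, the lung gene described above, averaged 40.1 TPM in blood and 13.3 TPM over the organs, against 94.2 TPM over the organs for the gene itself. The neighbour of TRINITY_DN25_c0_g4 averaged 23.2 TPM in blood and 139 TPM over the organs. These neighbours, singled out after their values were seen, correlated with their partners over the organ libraries at -0.154 and -0.422. Over all 30 the r ran from -0.422 to 0.949 with a median of 0.308. For 10 of the 62 genes, low blood values thus describe the assembled gene and not its whole component.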

How the data were processed

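Messenger RNA, selected with poly-T oligonucleotides per the labels' protocols, was measured in 29 libraries of 10 tissues. TPM of 53113 genes were deposited as a single table, whose unit comes from the file headers and from sums of 1000000. Gene IDs have the form of the Trinity assembler. No source used here gives the aligner, quantifier, versions or filters. Since depth cannot be read from TPM, no count test or counting interval was used, and the precision rests on 2 or 3 libraries per tissue. No pair of libraries shared an identical value above 0. Column names gave the samples.

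The members and lists were chosen with earlier results of these data known. limma 3.58.1 (R 4.3.3) fitted log2(TPM + 1) of the 49821 genes that reached 1 TPM in 2 or more of the 26 organ libraries, with a mean per organ and an intensity trend. Blood stayed out of the fit, since the choice of genes sets its spread. Benjamini-Hochberg adjustment ran over all genes tested within a contrast. The fit was tested on simulated data. Descriptions used Python 3.11.15, pandas 2.3.3 and numpy 2.4.6, figures matplotlib 3.10.9. Genes were named by rule: per organ and direction the largest called difference without overlap of libraries, the 2 most abundant, the 2 steadiest, and those nearest the limits. The closest and the most opposed pair of genes were named outside this rule, by their r. Of 40 marker symbols of blood, matrix, vessel, muscle and epithelial cells, 0 matched the table. Alternatives were a pseudocount of 0.1, no filter, median-of-ratios rescaling, the replicate number as a block, all 29 libraries in the fit, libraries left out and other limits of the rule. Rescaled summed levels and correlations were added after seeing the data. So were shares without the 2 most abundant genes or the libraries that stood apart, and correlations without spleen replicate 1.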

Additional observations from a re-analysis of the deposited data

How the results depend on the processing

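The number of genes meeting the rule followed its limits: 163 with 5 TPM as the organ minimum, 17 with 20 TPM, 41 with a blood limit of 0.5 TPM, 85 with 2 TPM, and 29 with every organ library at 10 TPM or more. Rescaled TPM gave 56, of which 50 were among the 62. Leaving out 1 library gave 55 to 76.

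Over the 62 genes, 59 to 62 differed among organs when 1 library was left out. Shares of all genes were not counted in the fits with libraries left out. Leaving out 1 library gave 20 to 26 genes higher and 4 to 8 lower in heart, 6 to 13 and 1 to 2 in kidney, 6 (in every case) and 19 to 30 in liver, 13 to 22 and 2 to 4 in lung, 6 to 11 and 0 to 7 in ovary, 1 to 6 and 8 to 13 in skin, 4 to 10 and 10 to 24 in spleen, 3 to 5 and 21 to 29 in stomach, and 6 to 11 and 0 to 8 in testis. Rescaling moved the counts by over 1.5 times to 12 lower in heart, 4 higher in kidney, 5 higher and 11 lower in ovary, 8 higher in skin, 7 lower in spleen, 13 higher and 17 lower in stomach, and 6 higher and 16 lower in testis. The cause was not tested. With liver replicate 2 and the first replicates of kidney and testis left out together, 1 gene was lower in kidney and 6 were higher in testis. With a pseudocount of 0.1, no filter or all 29 libraries in the fit, no count moved by over 1.5 times. The median r between genes was 0.226 as deposited, 0.11 rescaled and 0.197 without spleen replicate 1. The share of TPM in testis was 0.680% as deposited and 0.420% rescaled. Each of the 10 genes named for an organ kept its direction and its call under all 32 alternatives. They had been picked for the largest called difference without overlap of libraries, so this outcome was likely beforehand and says little about other calls.

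Replicate numbers are shared between tissues, ovary and testis included. The r between deviations of libraries with the same number ran from -0.236 to 0.456 with a median of -0.00209. It was over 0.1 for 22 of 100 pairs. Deviations from a mean of 2 or 3 libraries are noisy, so these r cannot decide whether the numbers pair the samples. The labels do not say so either, and the main fit left pairing out. Of 26 libraries, 15 correlated best with their own number. The number expected without pairing was not worked out, so this count cannot decide the question either. The median r between libraries of different numbers was 0.000783, close to that for the same number. With the replicate number as a block, 5 genes in place of 3 were lower in ovary and no other count moved by over 1.5 times.

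Unknown depth limits what a value under 1 TPM in blood can show, and 2 or 3 libraries per organ limit the calls.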
